A study of Homo sapiens with 10 samples.

Results

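EEF2, the human gene for eukaryotic translation elongation factor 2, was examined in PB010.5, a line of hiPSCs (induced pluripotent stem cells of human origin) in which a FUCCI cell cycle reporter cassette had been placed in the EEF2 locus. The region was defined as the gene, ENSG00000167658.16 on the minus strand at chr19:3976056-3985463, with 20 kb on each side, so that it ran from chr19:3956056-4005463 on GRCh38. It held 266 nucleosome positions, of 280246 on chromosome 19 and 12921589 in the whole deposited list. Of these, 55 had their midpoint in the gene body, 111 in the 20 kb upstream and 100 in the 20 kb downstream. The cells were undifferentiated and were digested for 5 min with micrococcal nuclease (MNase), with 10, 6, 3, 1 or 0.5 U of enzyme and 1 digestion per amount. Each digestion was sequenced with 150-bp and with 50-bp reads, which gives the 10 samples. The deposited list pools samples, so it has no replicates and no value per amount of enzyme, and no test between conditions could be made. All cells came from a single line, and where in EEF2 the cassette lies and how many alleles carry it are not given in the sources used here. The reference holds no cassette, so any nucleosomes on it were not analysed here.

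EEF2 is the GTPase that moves the ribosome along the mRNA by a codon after each peptide bond, and cells make it in large amounts. A histidine of the protein is converted to diphthamide, and the kinase EEF2K slows elongation by phosphorylating a threonine near its amino end. Because the gene is active in nearly every cell type, cassettes placed in it are meant to stay expressed. MNase cuts the linker DNA between nucleosomes, and active promoters usually show a stretch without nucleosomes just before the transcription start, with the +1 nucleosome following the start and the -1 nucleosome preceding the stretch. Expression of EEF2 was not measured in these data.

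The sequences that carried the clearest features of the promoter are given first, from GRCh38 and 5′ to 3′ on the minus strand, the strand of EEF2. In the -1 position (chr19:3985642-3985781), capitals mark CpG dinucleotides. In the stretch without positions before the start (chr19:3985464-3985641), they mark motif matches.
-1 position: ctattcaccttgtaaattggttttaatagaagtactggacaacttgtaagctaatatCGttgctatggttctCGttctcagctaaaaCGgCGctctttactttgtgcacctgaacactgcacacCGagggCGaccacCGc
Stretch before the start: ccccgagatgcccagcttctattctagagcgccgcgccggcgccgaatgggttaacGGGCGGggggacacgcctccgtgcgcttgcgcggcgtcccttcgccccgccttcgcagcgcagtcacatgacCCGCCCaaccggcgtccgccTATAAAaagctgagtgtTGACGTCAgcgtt

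The EEF2 promoter had strong positions on both sides of a wide free stretch. The +1 position (chr19:3985282-3985421) had its midpoint 111 bp downstream of the transcription start at 3985463 and a score of 28.4. The score is the value that the deposited list gives each position, in a scale that is not stated, and its genome-wide quartiles were 9.87, 14.8 and 19.7. The -1 position had its midpoint upstream, at -249 bp, and a score of 34.5, which was above 95.7% of all chromosome 19 positions. Scores rose with GC content on this chromosome, so each position was also ranked among chromosome 19 positions whose GC, over 147 bp, lay within 2 percentage points. On that scale the -1 position (GC 46.3%) was above 98.6% and the +1 position (GC 71.4%) above 69.5% of positions. The midpoints lay 360 bp apart and left 220 bp without a position (chr19:3985422-3985641), of which 178 bp preceded and 42 bp followed the start. This stretch was 67.7% GC with 34 CpG dinucleotides, and all of its 31-base stretches occurred once in the reference.

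Upstream of the -1 position the scores were lower, at 14.8, 11.1, 12.3 and 16.0 for the next 4 positions. These were above 56.5%, 18.9%, 43.7% and 63.9% of positions of similar GC. Downstream of the +1 position, the next midpoint lay 239 bp from the start, only 128 bp from that of the +1 position, so that the 140-bp intervals overlapped. It scored 7.40, above 1.01% of positions of similar GC. The position after it, at 511 bp, scored 24.7, above 77.0% of positions of similar GC. By score, the strong pair at the EEF2 start was thus bordered by weaker positions on either side. By rank at similar GC, the position at 511 bp stood above the +1 position.

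**Figure D1:**
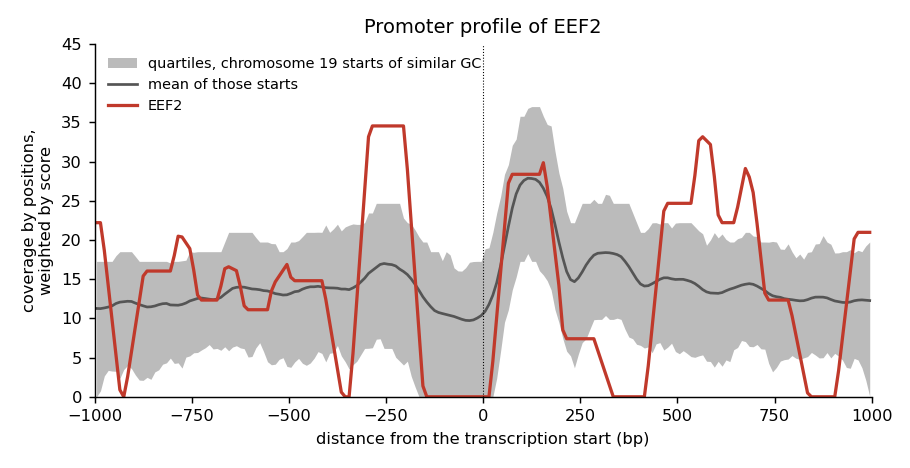
Coverage by positions, weighted by their score, within 1000 bp of the EEF2 transcription start, beside the mean over chromosome 19 starts of similar GC. The horizontal axis gives the distance from the start in bp and the vertical axis the weighted coverage. EEF2 falls to 0 within the 220 bp between its strong positions, whose scores were 34.5 and 28.4. The lower quartile of the compared starts is also 0 from -165 to 25 bp. EEF2 is 0 outside this stretch as well, for example from 335 to 415 bp.

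Against 270 chromosome 19 protein-coding starts of similar promoter GC, the +1 position of EEF2 was ordinary and the -1 position was far and high. The distance from the start to the first downstream midpoint had a median of 112 bp over those starts, beside 111 bp for EEF2. Their first downstream score had a median of 26.5, and 53.0% lay below that of EEF2. The distance between the flanking midpoints had a median of 230 bp (5th to 95th percentile 110 to 520), and 81.9% lay below the 360 bp of EEF2. Each distance and score uses the nearest listed position, whatever its score. A weak position near a start can therefore shorten the distance and lower the upstream score. The upstream score had a median of 18.5, and 86.7% lay below that of EEF2. With all 1470 other chromosome 19 starts in place of those of similar GC, these last shares were 81.6% and 86.5%. EEF2 thus lay within the 5th to 95th percentiles on each of these measures.

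Motif letters were searched on both strands of the 300-base RefSeq promoter window of EEF2 (GRCh38.p14), which reaches 250 bases before and 50 after the same start. A TATA box (TATAAA) began 30 bases before the start, and 11.5% of 35116 promoters held these letters. This share and those below count letters anywhere in a promoter's window on either strand, not at the place found in EEF2. A full cAMP response element (TGACGTCA) began 13 bases before the start, and 1.85% of promoters held one. GC boxes (GGGCGG) lay 182, 122 and 50 bases before the start, the middle one on the strand of EEF2 and the others on the opposite strand, and 45.0% of promoters held at least 1. The YY1 core letters CCGCCAT began at base 18 of the transcript, and 5.55% of promoters held them. The letters CCAAT (34.6% of promoters) and CACGTG (7.26%) were not in the window. The GC box at 182 bases lay across the edge of the -1 position, and each of the other matches before the start lay in the printed stretch without positions.

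The promoter intervals of other genes linked to elongation, taken in the same way, were set beside the 360 bp of EEF2. Over all 19973 protein-coding starts the median distance was 230 bp and 82.1% lay below EEF2, so most members of any list would be below it. All 7 of the other cytosolic elongation factor genes listed were below, with a median of 240 bp and a range of 180 to 330 bp. EEF1A1, which delivers aminoacyl-tRNA to the ribosome, came closest at 330 bp, but its upstream score was 6.17 against 34.5 for EEF2. EEF1D and EEF1B2, subunits of its exchange factor, had upstream scores of 70.3 and 44.4 at distances of 220 and 180 bp. Of the 7 genes for diphthamide synthesis, 5 were below EEF2, with a median of 270 bp, and DPH2 (480 bp) and DPH3 (490 bp) were above. Of EEF2K and 4 relatives of EEF2, 4 were below, with EEF2K at 160 bp and the mitochondrial elongation factor gene GFM1 at 710 bp. Of 6 genes in or near which reporter cassettes are commonly placed, 4 were below, with ACTB at 350 bp, GAPDH at 470 bp and PPP1R12C, the gene of the AAVS1 site, at 420 bp. PPP1R12C also had an upstream score of 34.5, equal to that of EEF2.

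The gene body of EEF2 held positions at an ordinary density when all positions were counted, but their scores were low for its GC content. It had 5.85 positions per kb, where 3201 chromosome 19 windows of the same length and similar GC had a median of 5.53 (5th to 95th percentile 4.78 to 6.16), and 72.0% of the windows lay below. The mean score was 16.8 (SD 6.62 over 55 positions), where the windows had a median of 21.3 (18.5 to 24.4), and 0.566% lay below. The 95% Wilson interval was 0.163% to 2.14%, for that share of all windows with the sample size set to 337. That is the number of windows that fit without overlap, and of those windows themselves 0 lay below. Without matching on GC, 37.4% of windows lay below, so the low rank rests on the comparison at equal GC. With only the positions that reached the genome-wide median score, the density was above 4.03% of windows in place of 72.0%, and the mean score above 4.53%. Scores in the gene body ran from 6.17 to 29.6, with quartiles of 11.1, 17.3 and 22.2. Of the 55 positions, 43 were above fewer than 50% of positions of similar GC, as 54.0% of chromosome 19 positions outside the region were. Fewer than 10% were lower for 16 of the 55 (14.5% of chromosome 19 positions outside the region), and more than 90% were lower for 0 of the 55 (8.72%). The median position of the gene body was above 25.2% of positions of similar GC, beside 49.0% in the upstream and 36.2% in the downstream flank.

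The share of high scores, at or above the genome-wide upper quartile, did not set the region apart. It was 104 of 266 positions (39.1%, 95% Wilson interval 33.4% to 45.1%), where 39.2% of chromosome 19 positions outside the region were as high. In the gene body it was 22 of 55 (40%, interval 28.1% to 53.2%). Among the 22943 chromosome 19 positions with GC within 2 points of the gene body's mean of 60.3%, however, 62.6% were as high and the mean score was 22.5. These intervals and the one above treat neighbouring positions or windows as independent and cover counting error only.

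**Figure D2:**
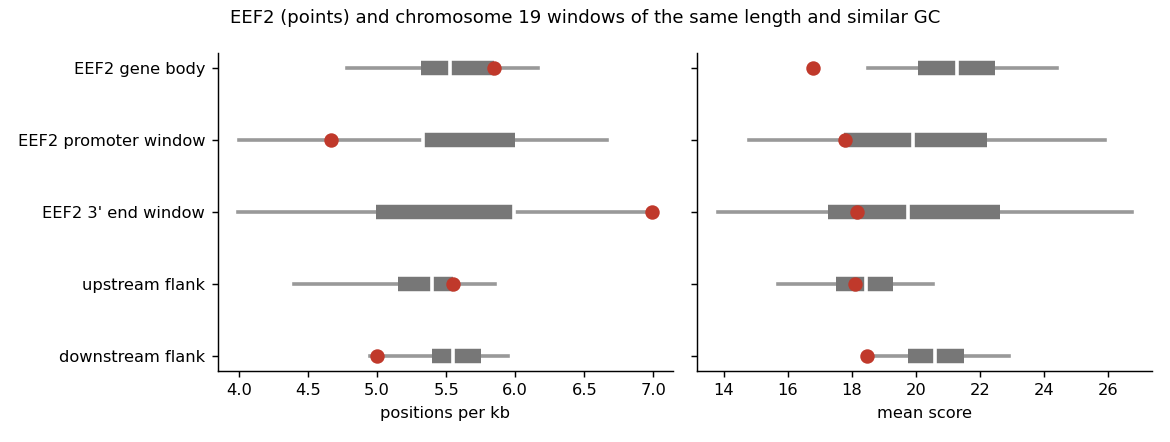
Positions per kb and mean score in the EEF2 gene body, the promoter and 3′ end windows and both flanks, each beside chromosome 19 windows of the same length and similar GC (median, with 5th to 95th percentile). The mean score of the gene body (16.8) falls below the 18.5 that marks the 5th percentile of its windows, while its 5.85 positions per kb lie within their range. The mean score of the downstream flank lies at the 5th percentile of its own windows, with 4.92% below.

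A low rank was also seen against whole genes, by median rank at similar GC rather than mean score. This comparison was added after the data were seen. Over chromosome 19 protein-coding genes with at least 10 positions, the median rank of a gene's positions at similar GC had a median of 46.2% (5th to 95th percentile 28.3% to 61.0%). Of 1412 such genes, 31 (2.20%) were lower than EEF2. Among the 675 genes with 28 to 110 positions, 14 (2.07%) were lower, and among the 182 with mean GC within 2 points, 5 (2.75%) were.

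**Figure D3:**
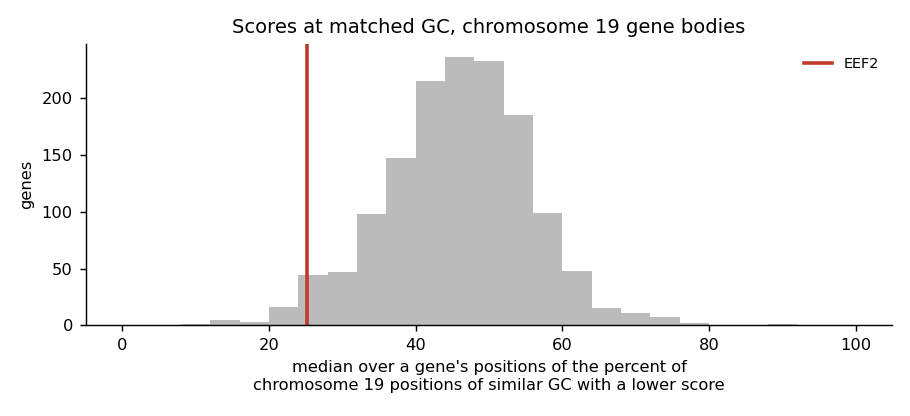
Number of chromosome 19 protein-coding genes (vertical axis) by the median, over a gene's positions, of the percent of positions of similar GC with a lower score (horizontal axis). EEF2 stands at 25.2%, and 31 of 1412 other genes lie below EEF2.

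Along the gene, the median rank at similar GC was lowest in the 5′ part, while the lowest single scores were spread over the gene. Cut into equal parts by length, the 5′ part had 18 positions with a mean score of 15.5 (SD 5.88, SE 1.39) and a median rank of 17.6%. The middle part had 17 positions with a mean of 18.1 (SD 7.45, SE 1.81) and a median rank of 28.4%, and the 3′ part had 20 positions with a mean of 16.9 (SD 6.62, SE 1.48) and a median rank of 39.6%. The standard errors are over positions, which are not replicates, and the parts were not tested against each other. In 1-kb tiles, the lowest mean score was 12.7, in a tile within intron 11 and exon 12 that was above 2.60% of tiles of similar GC and in which 60.7% of 31-base stretches occurred once in the reference. The next lowest was 13.1, in the tile with exon 3 and most of intron 2 (2.01% of tiles below), where all 31-base stretches occurred once. The part of read placement in these scores was not tested.

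To show positions at the ends of the range of scores within EEF2, 3 sequences are given, with exon bases in capitals. The first lies within exon 12 (chr19:3977942-3978081) and the second within exon 5 (chr19:3982262-3982401), and both scored 7.40, the lowest score of a wholly exonic position. The last is a position with the top score of the gene body, 29.6, at the end of exon 9 (chr19:3980427-3980566).
Low position in exon 12: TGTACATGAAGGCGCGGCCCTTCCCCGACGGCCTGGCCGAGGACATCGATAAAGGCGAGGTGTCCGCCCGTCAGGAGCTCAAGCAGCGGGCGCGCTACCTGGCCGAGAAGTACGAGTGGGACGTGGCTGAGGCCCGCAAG
Low position in exon 5: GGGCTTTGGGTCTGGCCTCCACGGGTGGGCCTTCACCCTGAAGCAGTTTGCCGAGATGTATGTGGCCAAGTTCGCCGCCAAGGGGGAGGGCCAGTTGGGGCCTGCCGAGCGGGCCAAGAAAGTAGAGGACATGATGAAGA
High position at exon 9: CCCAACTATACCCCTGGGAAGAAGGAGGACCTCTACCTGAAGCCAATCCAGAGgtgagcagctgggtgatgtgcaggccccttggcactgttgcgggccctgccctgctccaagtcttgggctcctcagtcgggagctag
The position in exon 12 was 67.1% GC with 16 CpG dinucleotides and that in exon 5 was 62.1% GC with 6. They were above 0.768% and 0.801% of positions of similar GC. The position at exon 9 was 61.4% GC with 2 CpG dinucleotides, had 53 of its 140 bp in the exon and was above 76% of positions of similar GC. The other position with a score of 29.6 (chr19:3979712-3979851) likewise spanned an exon edge, with 44 bp in exon 10. The lowest score of the gene body, 6.17, lay in intron 6 (chr19:3981662-3981801).

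Exonic and intronic positions of EEF2 did not differ in score beyond their spread. Positions with at least 0.40 of their bases in 1 of the 15 exons numbered 21, with a mean score of 16.9 (SD 6.39) and a range of 7.40 to 28.4. The other 34 had a mean of 16.8 (SD 6.85) and a range of 6.17 to 29.6. The difference was 0.097 with a standard error of 1.82 over positions, and its sign changed with the rule for an exonic position, to -0.52 when the midpoint had to lie in an exon and -2.50 when 0.9 of the position did. The median rank at similar GC was 28.4% for exonic and 24% for intronic positions. The share of an exon's bases under positions ran from 27.0% in exon 9 to 100% in exons 4 and 6.

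Particular points of the coding sequence could be placed on the map. The start codon, at the end of exon 1, lay under the +1 position. The codon of the threonine that EEF2K phosphorylates lay under a position in exon 2 (chr19:3984147-3984286) with a score of 17.3, above 23% of positions of similar GC. The codon of the histidine that becomes diphthamide lay under a position in exon 13 (chr19:3977482-3977621) with a score of 22.2, above 43.9%. The stop codon, after residue 858, lay under a position (chr19:3976422-3976561) with a score of 22.2, above 42.6%. SNORD37, a small nucleolar RNA gene in intron 4, lay at the edges of 2 positions, which covered 25 and 21 bp of it and scored 17.3 and 18.5.

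**Figure D4:**
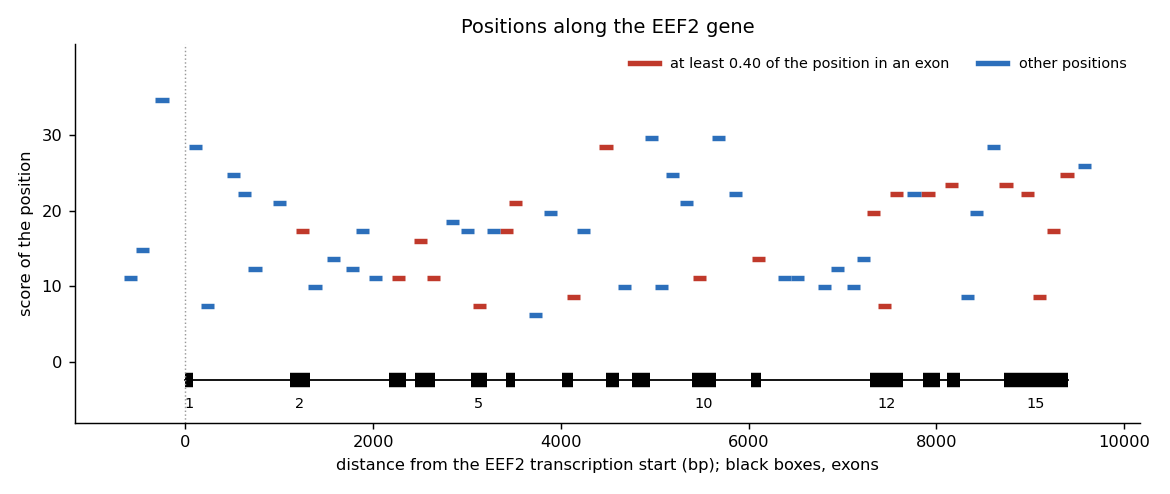
Score of each position (vertical axis) against distance from the EEF2 transcription start in bp (horizontal axis), with exonic and intronic positions in separate colours and black boxes for the 15 exons. Exonic and intronic positions are mixed over the range from 6.17 to 29.6, and low and high scores lie side by side along the gene.

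The spacing of neighbouring midpoints in the gene body had a lower median and similar quartiles. The median distance was 150 bp (quartiles 130 and 207.5, range 100 to 290), beside 170 bp (130 and 210) for the region and 170 bp (130 and 220) for chromosome 19. In the region, 15 of 265 distances (5.66%) were 300 bp or more, beside 10.3% on chromosome 19. Of these, 0 lay within the gene body and 1 spanned its start. In 6 of the 15 free stretches, the one at the EEF2 start included, all 31-base stretches occurred once in the reference.

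At the 3′ end of EEF2 the positions were somewhat dense and of middling score. The 1001-bp window centred on the gene end held 7 positions, 6.99 per kb, where windows of similar GC had a median of 5.99. Of those windows 83.3% lay below and 98.0% at or below, since many had the same count. The mean score of the 7 positions was 18.2, above 33.4% of windows. The 1501-bp promoter window also held 7 positions, 4.66 per kb, and 8.26% of windows of similar GC lay below (23.2% at or below). Its mean score was 17.8, above 25%.

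The widest free stretch of the region began 984 bp beyond the EEF2 3′ end and ran over 2000 bp (chr19:3973072-3975071). The midpoints on its sides lay 2140 bp apart, a distance that 75 of 280245 neighbours on chromosome 19 (0.0268%) reached. The reference holds a tandem duplication there, with copies of 1034 bp at chr19:3973025-3974058 and chr19:3974097-3975130 that matched at 99.8% of bases, with 2 mismatches. All 1970 of the 31-base stretches in the free stretch occurred at least 2 times in the reference. Whether the longer reads of this series could be placed there was not computed. The part of read placement in the absence of positions was not tested. Over the 20 kb downstream, the density was 5.00 per kb, above 5.13% of windows of similar GC. With the free stretch left out of the length it was 5.56 per kb, above 50.4% of windows. The windows kept their own free stretches, and leaving out a stretch without positions can only raise a density. This value therefore does not show how much of the low density goes with the duplication. The mean score of this flank was 18.5, above 4.92% of windows of similar GC, so low scores for the GC content were not limited to the gene body.

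**Figure D5:**
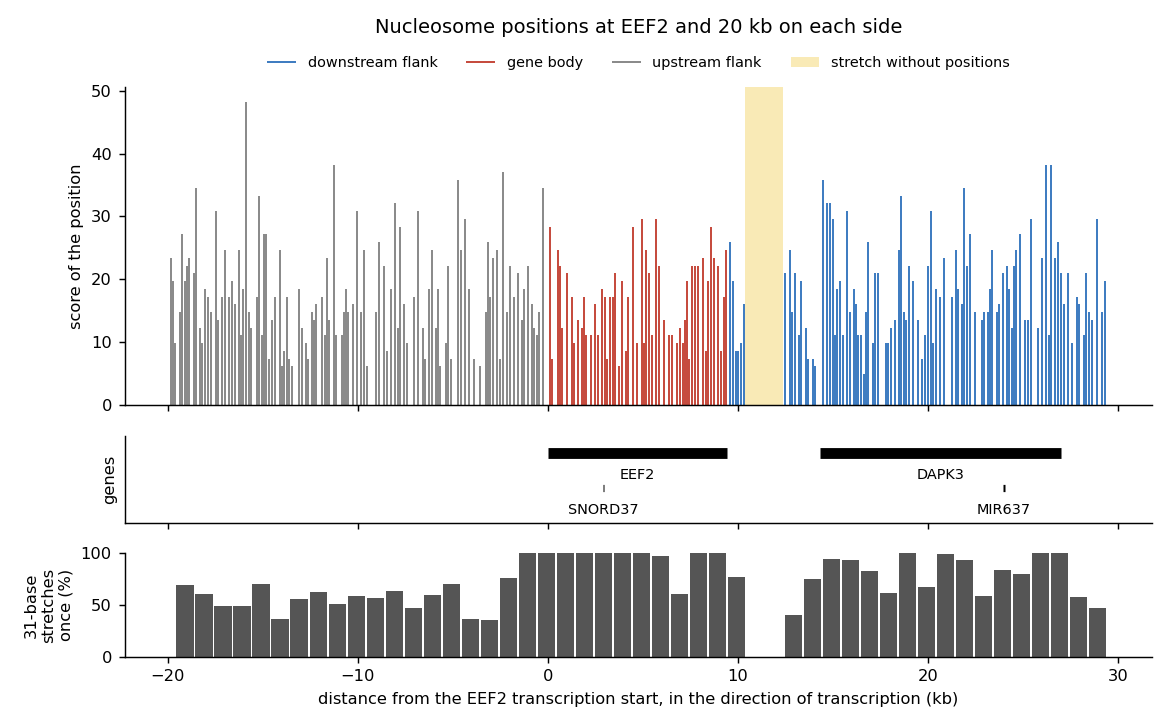
Score of each of the 266 positions against the distance from the EEF2 transcription start in kb, in the direction of transcription, over the annotated genes and the share of 31-base stretches that occur once in the reference. The shaded 2000 bp without positions coincide with tiles at 0%.

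DAPK3, the gene for a death-associated protein kinase (ENSG00000167657.14, chr19:3958453-3971123, minus strand), begins 4933 bp beyond the EEF2 3′ end. Its 72 positions had a mean score of 19.6 (SD 7.77), beside 16.8 (SD 6.62) for EEF2. The difference was 2.77 with a standard error of 1.28 over positions, which are not replicates, and it was not tested. The median rank of DAPK3 at similar GC was 36.4%, beside 25.2% for EEF2. At its canonical start, the flanking midpoints lay 430 bp apart with a score of 35.8 downstream and 6.17 upstream, so DAPK3 lacked the strong -1 position that EEF2 had. The 1-kb tile that holds this start had 4 positions with a mean score of 8.33, above 0.281% of tiles of similar GC, and the next tile into DAPK3 had 7 with a mean of 25.6. MIR637, a microRNA gene within DAPK3, had 61 of its 99 bp under a position with a score of 21.0. Beyond the region, PIAS4, for a SUMO ligase, began 22273 bp upstream of EEF2, with a mean score of 19.9 over 184 positions and a promoter distance of 260 bp. NMRK2, for a nicotinamide riboside kinase, lay 33640 bp downstream, with a mean of 18.6 over 47 positions and a promoter distance of 210 bp.

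The 20 kb upstream of EEF2 held no annotated gene and resembled the chromosome at its GC of 49.2%. It had 5.55 positions per kb, above 68.8% of windows of similar GC, and a mean score of 18.1, above 39.9%. Of its 111 positions, 14 were above more than 90% of positions of similar GC, and of the 100 downstream 3 were, beside the same 8.72% on chromosome 19. Over the whole upstream flank, 59.3% of 31-base stretches occurred once in the reference, beside 70.8% downstream and 95.5% in the gene body.

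The promoter profiles most like that of EEF2, over 200 bins of 10 bp and 1463 chromosome 19 genes, were those of NDUFA7 (Pearson's r 0.74), ENSG00000167774 (0.74), RCN3 (0.72), KDELR1 (0.70) and ZNF211 (0.66). The first pair have starts that nearly coincide and share their positions. The median r over the genes was 0.11 and the 95th percentile 0.48, and profiles share the layout common to active starts. NDUFA7 and ENSG00000167774 had flanking midpoints 190 bp apart and an upstream score of 7.40, and KDELR1 had 130 bp and 7.40. In these 3 of the 5, the nearest upstream position was thus closer and weaker than the -1 position of EEF2. Positions further upstream of these starts were not examined. RCN3 had 350 bp and an upstream score of 25.9, and ZNF211 had 360 bp and 43.2. The ranking depended on its measure, since 2 of the 5 genes remained among the top 5 within 500 bp of the start and 0 of them with counts of midpoints in place of scores.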

How the data were processed

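The authors digested PB010.5 hiPSCs with MNase at 5 amounts, added yeast mononucleosomal DNA, sequenced 150-bp and 50-bp paired-end reads, and trimmed and aligned them to GRCh38 (Trimmomatic 0.40 and the build per the submitters' processing notes). The paper's methods state that the 50-bp runs were not taken further. Which runs were pooled and which program called the positions are not given in the sources used here. The deposited list holds 140-bp positions with a score, a signal that is never negative, whose scaling the authors do not state; 99.999845% of scores were whole multiples of 1.23 (tolerance 0.001 of a step). It gives no read depth, so no sampling error of a score is known.

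The list was used unfiltered. Midpoints were taken 70 bp after the start, and genes from GENCODE release 44 (the methods name release 48) on hg38, whose chromosome lengths were checked against the list. The named genes were EEF2, genes of the region and the nearest protein-coding gene beyond each edge, the 5 most alike promoters, and up to 4 values per fixed list. Windows of equal length were laid every 1 kb on chromosome 19, outside the region, and kept where GC was within 2 percentage points. Ranks are descriptions, not tests. Profiles used 10-bp bins smoothed over 5 bins. The window counts were tested on simulated data and against bedtools 2.31.1. Scripts ran on Python 3.11.15 with pandas 2.3.3, NumPy 2.4.6 and SciPy 1.17.1, and figures were drawn with matplotlib 3.10.9. The region and gene lists were chosen with earlier results of these data known. A gene and a sequence looked at in the course of the work are not reported here.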

Additional observations from a re-analysis of the deposited data

How the results depend on the processing

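Of 78 alternatives over 16 values, 40 stayed close to the value reported and 36 moved, judged by its interval or error where it has one, by the 10-bp grid for distances and by 1.5 times for the count of alike promoters, and 2 reversed a sign, the exonic minus intronic difference (-0.52 by midpoint, -2.50 at 0.9 of the position). Values below are percents of chromosome 19 windows that lay lower. Without GC matching, density moved to 88.1% for the gene body, 25.2% for the promoter window, 88.7% for the 3′ end, 74.3% for the upstream and 35.4% for the downstream flank, and mean score to 37.4%, 53.1%, 56.7%, 51.2% and 56.1%. With only positions that reached the median score, density moved to 4.03% (gene body), 6.98% (promoter), 60.5% (3′ end) and 53.9% (upstream), and mean score to 4.53%, 52.9%, 39.9% and 44.6%. With genic windows, density moved to 6.78% (promoter) and 63.6% (upstream), and mean score to 23.3% (promoter), 32.1% (3′ end) and 35.6% (upstream). With GC within 5 points, mean score moved to 30.7% (promoter), 38.6% (3′ end), 44% (upstream) and 9.56% (downstream), and with GC within 1 point to 23.6% (promoter) and 31.5% (3′ end). Of the 337 windows that do not overlap, 0 had a lower mean score than the gene body, a share of 0% that allows up to 0.890%. Chosen after seeing the data, the comparison with chromosome 19 gene bodies gave 2.20%. That is a share of genes by median rank at similar GC, not of windows by mean score. Leaving out the duplicated stretch, also chosen then, gave a downstream density above 50.4% of windows, which kept their own free stretches. The median distance between midpoints was 205 bp for positions that reached the median score and 150 bp in the gene body. The most alike promoters kept 2 of 5 genes within 500 bp and 0 of 5 with midpoint counts. The causes of these moves were not tested beyond what each alternative changes.

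No paired analysis was possible because the deposited list pools the samples and no value comes from a test between groups. For the same reason no library could be left out, and neither depth nor MNase dose could be set against a value. Intervals cover counting error over windows or positions, which are not replicates of the experiment. Ranks at 31-base stretches found more than 1 time in the reference may depend on read placement that the list does not record.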
